A study of Mus musculus with 32 samples.

Results

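Enteroendocrine cells are the hormone-secreting cells of the gut epithelium, and the genes described here are 7 of their hormones, a granule protein and 2 of their fate factors: Cck, Gip, Gcg, Sct, Sst, Pyy, Ghrl, Chga, Neurog3 and Neurod1. Peaks of 8 HNF4A ChIP-seq lists from mouse jejunum were merged wherever they shared at least 1 bp, and a merged site was kept when it fell in the body of 1 of these 10 genes or within 20 kb on either side. This left 22 of 45552 merged sites, at 6 of the 10 genes. Cck, Gip, Sct, Pyy, Ghrl and Chga had 2 to 6 sites each, and Gcg, Sst, Neurog3 and Neurod1 had none.

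The lists came from intestinal epithelial cell (IEC) preparations of the jejunum of male C57BL/6J mice aged 10 to 12 weeks, taken 2 hours after gavage of a high-fat meal (HFM) of egg yolk. GF+HFM were 4 germ-free mice given the meal. CV+HFM were 4 mice born germ-free, colonized for 14 days with a conventional mouse microbiota and given the same meal. Each list held the peaks of 1 mouse called against input DNA, with 1 input library for each condition. The preparations were not sorted by cell type and came from scraped villi, with some crypt and mesenchymal cells, so enteroendocrine cells were a minority, and a peak cannot be assigned to a cell type. Fewer cells of a type and less binding per cell cannot be told apart in such preparations. The lists hold no RNA levels and the RNA-seq libraries of the series were not analysed here, so the presence of enteroendocrine cells was not checked from expression markers.

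HNF4A is a nuclear receptor that binds DNA as a homodimer and is a main regulator of enterocyte genes for digestion and lipid handling. Enteroendocrine cells arise from the same crypt stem cells as enterocytes, pass through a brief state marked by the transcription factor Neurog3, and then switch on Neurod1 and the hormone genes. Several of these hormones, among them Cck, Gip and the products of Gcg, are released when fat reaches the small intestine.

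The reference bases shared by the peaks of every library that called a site are printed here for the sites on which the results turn: the Cck site that was called in every GF+HFM list and in no CV+HFM list, 3 of the 4 sites called in all 8 lists (the fourth, at Gip, is exonic), the Cck and Ghrl sites that hold the strict HNF4 element, and the upstream sites of Pyy and Chga. All are plus-strand bases of mm9 outside annotated exons, from the NCBIM37 reference. Capitals mark a match to CAAAGNNCA on either strand, in which N is any base. This is the core of the HNF4 element, and CAAAGTCCA is its strict form.
Cck site 2, chr9:121416982-121417124: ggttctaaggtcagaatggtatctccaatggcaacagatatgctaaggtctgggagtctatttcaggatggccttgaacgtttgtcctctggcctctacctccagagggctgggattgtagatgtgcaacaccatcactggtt
Cck site 3, chr9:121418368-121418633: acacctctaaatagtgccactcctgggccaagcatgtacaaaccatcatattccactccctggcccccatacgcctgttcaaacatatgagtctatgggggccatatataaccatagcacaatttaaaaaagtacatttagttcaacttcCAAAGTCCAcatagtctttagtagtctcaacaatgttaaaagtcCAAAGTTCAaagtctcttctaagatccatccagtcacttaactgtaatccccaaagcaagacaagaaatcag
Sct site 3, chr7:148464039-148464116: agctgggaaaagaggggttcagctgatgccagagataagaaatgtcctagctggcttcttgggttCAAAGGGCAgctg
Pyy site 2, chr11:101977691-101977909: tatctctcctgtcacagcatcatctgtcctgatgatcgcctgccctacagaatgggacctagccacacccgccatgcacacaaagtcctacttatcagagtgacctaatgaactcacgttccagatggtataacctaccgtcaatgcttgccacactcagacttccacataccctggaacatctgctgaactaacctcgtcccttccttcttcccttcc
Ghrl site 4, chr6:113661700-113661855: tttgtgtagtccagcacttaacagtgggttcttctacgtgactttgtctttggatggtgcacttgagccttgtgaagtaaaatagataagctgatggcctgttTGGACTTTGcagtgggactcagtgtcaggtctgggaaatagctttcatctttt
Ghrl site 5, chr6:113662847-113663026: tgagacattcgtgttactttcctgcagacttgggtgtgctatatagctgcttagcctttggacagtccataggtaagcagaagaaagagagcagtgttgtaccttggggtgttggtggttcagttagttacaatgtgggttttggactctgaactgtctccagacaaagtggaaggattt
Ghrl site 6, chr6:113687386-113687617: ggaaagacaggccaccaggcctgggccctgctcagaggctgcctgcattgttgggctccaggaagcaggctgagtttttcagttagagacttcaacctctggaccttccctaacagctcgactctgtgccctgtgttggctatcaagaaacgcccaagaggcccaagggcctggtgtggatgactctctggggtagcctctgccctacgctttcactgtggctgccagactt
Chga site 1, chr12:103784969-103785116: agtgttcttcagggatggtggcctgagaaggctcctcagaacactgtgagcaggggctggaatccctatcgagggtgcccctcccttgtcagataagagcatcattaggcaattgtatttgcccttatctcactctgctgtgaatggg
The 266 bases of Cck site 3 hold 2 matches on the plus strand, the strict form at chr9:121418518-121418526 and CAAAGTTCA at chr9:121418562-121418570. The 78 bases of Sct site 3 hold CAAAGGGCA at chr7:148464104-148464112. In Ghrl site 4 the strict form lies on the minus strand at chr6:113661803-113661811, so that its reverse complement is printed. Cck site 2, Pyy site 2, Ghrl sites 5 and 6 and Chga site 1 have no match in these shared bases, which says only that these letters are not in this window.

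Across all 22 shared parts, 6 held a match to CAAAGNNCA and 2 the strict form. The other matches were in Cck site 4, with 1 on each strand, Ghrl site 3 and Chga site 2. In windows of 150 bp on either side of the site midpoints, 5 of 22 member sites (22.7%) held CAAAGNNCA, against 27.5% of the 45323 merged sites with reference sequence and 35.6% of those called in all 8 lists. The strict form was in 2 of 22 windows (9.09%), against 5.73% and 10.8%. With 22 sites, these shares rest on 5 and 2 windows, and neither is shown to differ from that of all sites. Each stretch of 50 bases, taken every 10 bases, from all 22 shared parts occurred once in the mm9 reference as an exact match. Near copies and annotated repeats were not searched, so this does not show that the sites lie outside repeats.

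**Figure D1:**
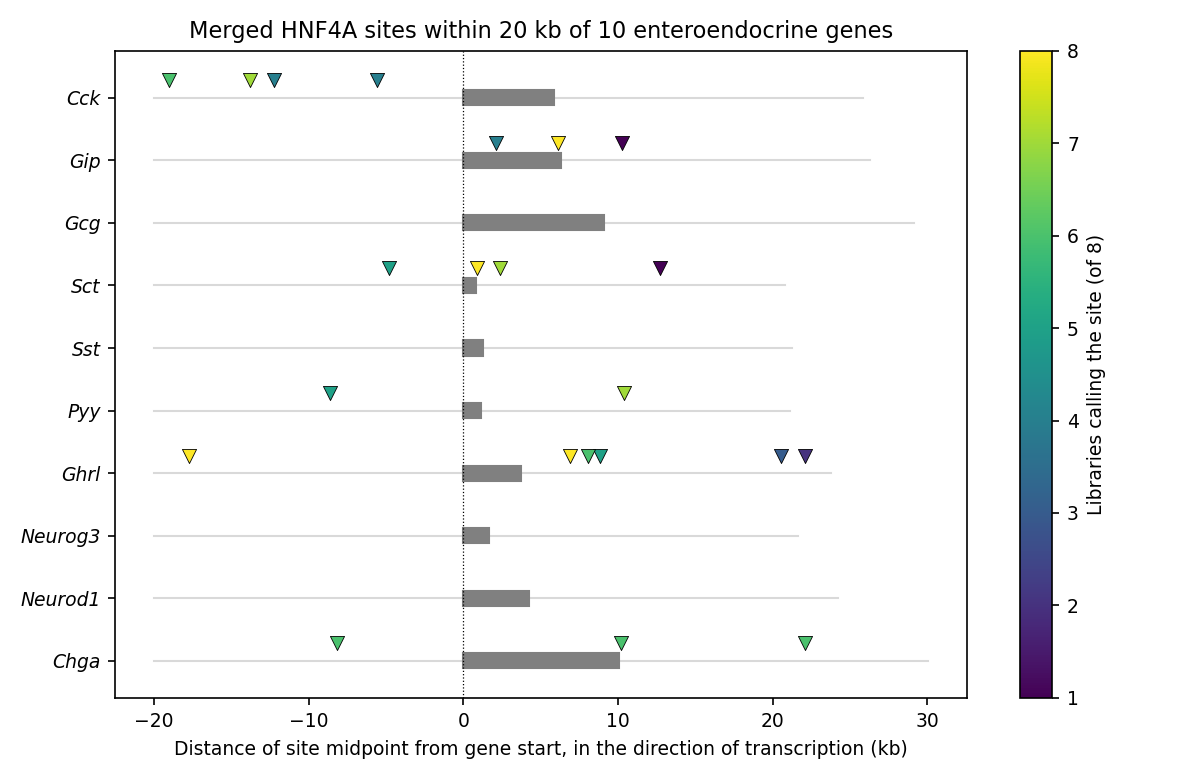
Merged HNF4A sites at the 10 genes. The x axis is the distance in kb of a site's midpoint from the gene start, counted in the direction of transcription, each row is a gene, the grey box is the gene body, the thin line is the window of 20 kb on either side, and the color of a triangle is the number of libraries (of 8) that called the site. No site overlapped the start of any of these genes, and Gcg, Sst, Neurog3 and Neurod1 have no triangle.

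Of the 22 sites, 8 lay upstream of their gene, 4 over the gene body and 10 downstream. None overlapped the annotated start of its gene, and only Sct site 3, at 877 bp, had its midpoint within 1 kb of it. Sct is 803 bp long, so this midpoint lies past the end of the gene. For 14 sites the nearest start of a protein-coding gene was that of the named gene. For the other 8 it was that of a neighbor, and 4 sites lay within 1 kb of the start of Snf8, Irf7, Cdhr5 or Tatdn2, so presence in a window does not tie a site to the hormone gene. Counting neighbors too, 5 of 22 sites (22.7%) were within 1 kb of a coding start, against 14.2% of all merged sites. The 22 sites were kept for lying in or near genes and the merged sites as a whole were not. A higher share near starts thus follows in part from that choice and is not a trait of these genes. The sites were 169 to 1037 bp long, with a median of 610.5 bp against 437 bp for all merged sites.

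The lists differ in length, and this bears on every count that follows. GF+HFM replicates 1 to 4 held 36846, 31061, 34011 and 34183 peaks, and CV+HFM replicates 1 to 4 held 29345, 9206, 21033 and 4533. The CV+HFM replicates 2 and 4 stand apart from all other lists. The lists give a position and a name for each peak and no strength, so peaks were ranked within their own list by width, as the percentile of peaks that are narrower. Percentiles from lists of such different lengths cannot be set against each other between conditions: over all calls at the 22 sites the median was 60.4 for GF+HFM lists and 72.6 for those of CV+HFM. A missing peak can be unbound DNA or a signal under the caller's threshold, and the depth of the libraries is unknown.

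At Cck, which encodes cholecystokinin, the hormone that drives gallbladder contraction and pancreatic enzyme release, all 4 sites lay upstream. The gene is on the minus strand at chr9:121398943-121404807, and the midpoints were 5561, 12259, 13760 and 19032 bp from its start, all between genes. Cck site 3 (chr9:121418106-121419029) was the widest of the 4 in every GF+HFM list. It was at width percentiles of 95.4, 98.0, 90.5 and 90.6 in GF+HFM replicates 1 to 4 and of 88.2, 81.9 and 72.6 in CV+HFM replicates 1 to 3, and it was not called in CV+HFM replicate 4. The site was missing only from the shortest list. On ranks over the sites common to the other 7 lists, its normal score differed by -0.50 ± 0.38 (SE) between CV+HFM and GF+HFM (limma, adjusted p = 0.689).

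Cck site 2 (chr9:121416896-121417237) lies close to site 3 and was the only one of the 22 sites called in all 4 GF+HFM lists and in no CV+HFM list, a pattern found at 2.79% of all merged sites (1269 of 45552). Its percentiles were 18.6, 26.6, 6.05 and 21.3, so it was a narrow peak in each GF+HFM list. A two-sided Fisher's exact test on these calls gave p = 0.0286, the smallest this design can give, and an adjusted p of 0.824 over all 45552 sites (Benjamini-Hochberg). Cck site 1 (chr9:121410017-121410719) was called in 3 GF+HFM lists, at 22.6, 43.2 and 78.6 in replicates 1, 3 and 4, and in CV+HFM replicate 1 at 18.8. Cck site 4 (chr9:121423520-121424158) was called in all 4 GF+HFM lists at 60.8 to 88.2 and in CV+HFM replicates 1 and 3 at 73.1 and 91.1. Both sites thus had more calls in GF+HFM, as did 86.5% of all merged sites.

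At Gip, which encodes the incretin glucose-dependent insulinotropic polypeptide, 3 sites were found in and after the gene (plus strand, chr11:95885859-95892145). Gip site 2 (chr11:95891522-95892460) covers the end of the gene, with exon 6 and part of intron 5, and was called in all 8 lists. Its midpoint was 6132 bp from the start of Gip, and the nearest coding start, at 4208 bp, was that of Snf8. Its percentiles were 66.9, 75.3, 86.0 and 91.2 in GF+HFM and 78.1, 36.7, 88.3 and 51.2 in CV+HFM. Gip site 1 (chr11:95887775-95888164) covers exon 3 and parts of introns 2 and 3 and was called in 3 GF+HFM lists and in CV+HFM replicate 3. Gip site 3 (chr11:95895990-95896201) was called in GF+HFM replicate 1 alone and covers the start of Snf8, a subunit of an endosomal sorting complex.

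Sct encodes secretin, which stimulates bicarbonate secretion by the pancreas, and is a short gene on the minus strand at chr7:148464230-148465032. Sct site 3 (chr7:148463677-148464634) covers its exons 3 and 4 and was called in all 8 lists. The bases shared by the peaks of all 8 lists (chr7:148464039-148464116) lie past the end of Sct, on the side of Cdhr5. Its percentiles were 96.4, 96.0, 91.1 and 90.2 in GF+HFM and 95.7, 96.1, 96.3 and 33.5 in CV+HFM. In 7 of 8 lists it was at 90.2 or above, and CV+HFM replicate 4, where the peak was 78 bp wide, was the exception.

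Sct site 2 (chr7:148462256-148463123) covers the start of Cdhr5, a cadherin of the enterocyte brush border, 4 bp from the site's midpoint. It was called at 70.8 to 90.9 in the 4 GF+HFM lists and at 94.3, 57.5 and 78.1 in CV+HFM replicates 1 to 3. Its width was also ranked over the sites common to all lists but CV+HFM replicate 4. On these ranks the normal score of Sct site 2 was 0.31 ± 0.38 (SE) higher in CV+HFM (limma, adjusted p = 0.817). This difference did not pass the test. Sct site 4 (chr7:148469693-148470000), 4814 bp upstream, had calls in 3 GF+HFM lists and 2 from CV+HFM, at percentiles of at most 40.1. Sct site 1 (chr7:148452201-148452369), in Irf7, an interferon regulatory factor, was called in GF+HFM replicate 2 alone.

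Pyy encodes peptide YY, which slows gut transit after a meal, and is on the minus strand at chr11:101967990-101969146. Pyy site 2 (chr11:101977597-101977992), 8648 bp upstream, was called in all 4 GF+HFM lists at 29.4, 43.1, 44.2 and 35.6 and in CV+HFM replicate 1 at 30.3 (Fisher's exact test, p = 0.143, adjusted p = 0.824). Pyy site 1 (chr11:101958449-101959030), downstream, was nearest to the start of the pancreatic polypeptide gene Ppy at 3894 bp. It was called at 56.7, 32.0, 65.4 and 44.9 in GF+HFM and at 20.5, 18.6 and 4.05 in CV+HFM replicates 1 to 3. On ranks over the sites common to the 7 lists without CV+HFM replicate 4, the normal score of site 1 differed by -0.69 ± 0.47 (SE), CV+HFM minus GF+HFM (limma, adjusted p = 0.661), which did not pass the test.

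Ghrl encodes ghrelin, a peptide known for promoting food intake, and had the most sites of the 10 genes. It is on the minus strand at chr6:113666113-113669874, and 17.3% of protein-coding genes had as many sites or more. Ghrl site 5 (chr6:113662635-113663300), 2813 bp beyond the end of the gene, was called in all 8 lists at 80.8, 87.3, 74.9 and 75.4 in GF+HFM and 86.8, 96.1, 81.7 and 75.9 in CV+HFM. Ghrl site 6 (chr6:113687079-113688115) was also called in all 8, at 92.9, 86.6, 94.0 and 91.7 in GF+HFM lists and 85.7, 71.9, 74.9 and 88.6 in those of CV+HFM. Site 6 lies 17723 bp upstream of Ghrl in Sec13, a coat protein and nuclear pore gene, over its exon 2, and is 3140 bp from the start of Sec13.

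The remaining 4 Ghrl sites lay downstream. Each had fewer calls in the CV+HFM lists than in the GF+HFM lists, as did 86.5% of all merged sites. Ghrl site 4 (chr6:113661565-113662033) was called in all 4 GF+HFM lists at 35.9, 46.4, 28.5 and 50.9, and in CV+HFM replicates 1 and 3 at 21.1 and 1.71. Ghrl site 3 (chr6:113660906-113661215), in the last exon of Tatdn2, which encodes a TatD-family DNase, was called in every GF+HFM list and in CV+HFM replicate 1. Ghrl sites 2 (chr6:113649082-113649575) and 1 (chr6:113647560-113647973), in the first part of Tatdn2, were called in 3 and 2 GF+HFM lists and in no CV+HFM list. The share of all merged sites called in no CV+HFM list was 35.6%. The window of Ghrl thus holds both sites found in every list and sites found in few.

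At Chga, which encodes chromogranin A, a matrix protein of secretory granules, 3 sites were each called in all 4 GF+HFM lists and in CV+HFM replicates 1 and 3 only. The gene is on the plus strand at chr12:103793179-103803237. Chga site 1 (chr12:103784684-103785349), 8163 bp upstream, had percentiles of 60.1, 90.6, 68.4 and 67.1 for GF+HFM replicates 1 to 4 and of 1.52 and 31.1 for CV+HFM replicates 1 and 3. Chga site 2 (chr12:103802913-103803792) covers exon 8 at the end of the gene with values of 41.8 to 95.4 in GF+HFM lists and of 94.5 and 52.6 in the CV+HFM pair. Chga site 3 (chr12:103814941-103815634), in intron 8 of the inositol phosphate kinase gene Itpk1, was at 43.2 to 90.4 and at 74.8 and 38.1. For each of the 3 sites Fisher's exact test gave p = 0.429, with the calls missing from the 2 shortest lists.

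**Figure D2:**
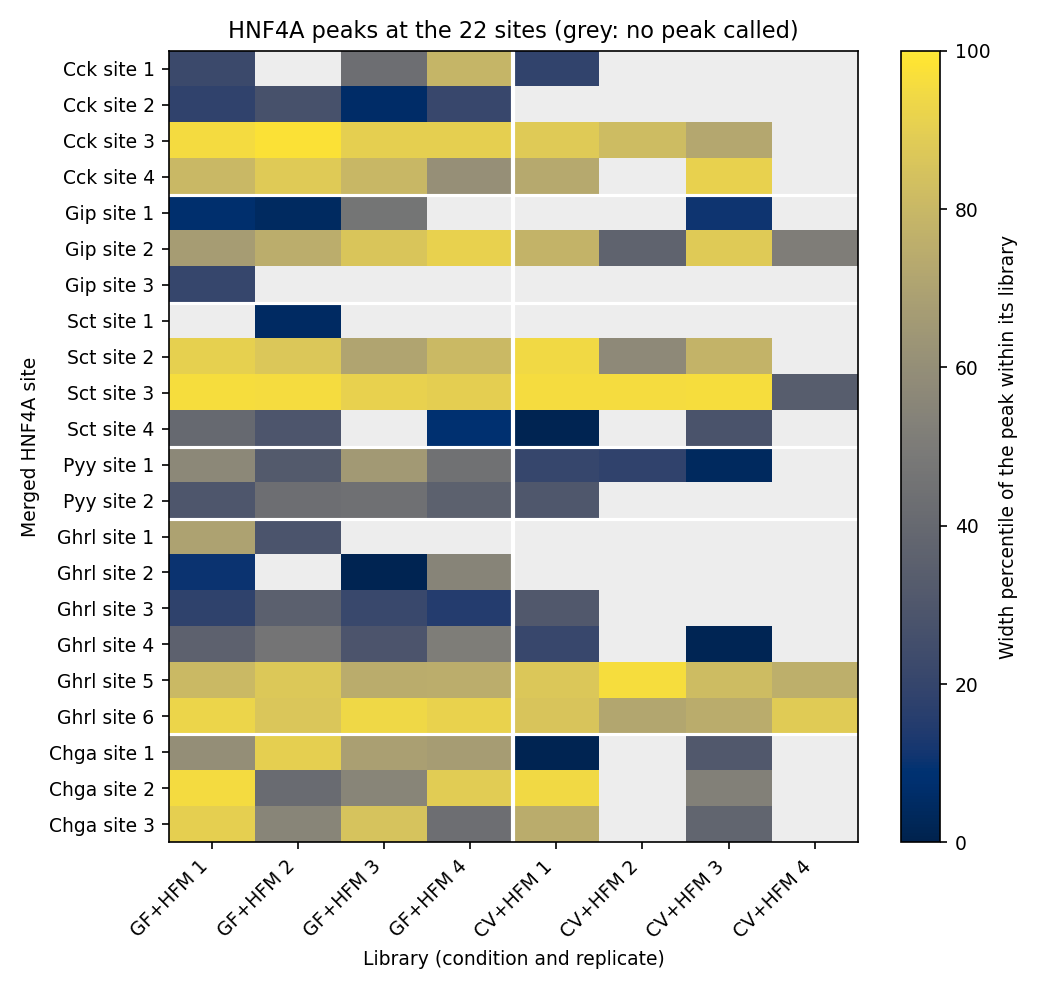
Width percentile of the peak at each of the 22 sites (y axis) in each of the 8 libraries (x axis, GF+HFM to the left of the white line and CV+HFM to the right), on a color scale of 0 to 100 with grey where no peak was called. Gip site 2, Sct site 3 and Ghrl sites 5 and 6 are filled in every column, and the grey cells lie mainly under CV+HFM 2 and CV+HFM 4.

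The fate factors and the hormones Gcg and Sst had no site in their windows. Neurog3, which starts the enteroendocrine program (plus strand, chr10:61595838-61597511), had its nearest site at chr10:61572958-61573878, 21960 bp upstream and thus just outside the window. It was called in all 4 GF+HFM lists at percentiles of 71.5 to 86.6, and in CV+HFM replicates 1 and 3 at 77.7 and 24.7. It lies in another gene, 2010107G23Rik, within which Neurog3 is annotated, and the coding start nearest to it was that of Neurog3. Neurod1, which acts after Neurog3 (minus strand, chr2:79292678-79296908), had its nearest site 49244 bp away in Cerkl (chr2:79242887-79243434), called in 2 GF+HFM lists only. The coding start nearest to that site was that of Neurod1.

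Gcg encodes proglucagon, the precursor of the incretin GLP-1, and is on the minus strand at chr2:62312587-62321707. Its nearest site (chr2:62289518-62290199) was 22388 bp downstream, in a noncoding transcript, and was called in all 8 lists. The coding start nearest to this site was that of Gcg. The site had percentiles of 77.1, 77.2, 70.5 and 76.8 in GF+HFM and 57.7, 64.0, 72.8 and 88.2 in CV+HFM. Sst encodes somatostatin, an inhibitor of other gut hormones (minus strand, chr16:23889667-23890930). Its nearest site (chr16:23981604-23981811) was 90674 bp away in Bcl6, whose start was the nearest coding start, and was called in 1 list of each condition.

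The zero at these 4 genes depends on the window for 3 of them. Within 20 kb, 34.5% of 22380 protein-coding genes (7727) had no site, against 4 of 10 here (40%). The median was 2 sites per protein-coding gene and 2.5 over the 10 genes. Within 10 kb the same 4 genes had none, and within 50 kb only Sst had none, with a median of 7 sites over the 10 genes against 3 over all. A window grows with the gene, and the 10 genes are short, with a median length of 3996.5 bp against 15420.5 bp for all protein-coding genes.

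Other genes listed for the enteroendocrine program were counted in the same way. Whether these genes are expressed only in enteroendocrine cells was not checked, so their sites cannot be assigned to those cells. Of 56 further enteroendocrine genes, 30 had a site and 26 had none (46.4%), with a median of 1 site. By role, a site was found at 4 of 10 genes for other hormones or amine synthesis, 9 of 13 for granules and processing, 9 of 20 fate factors and 8 of 13 nutrient receptors or channels. Among those with none were the hormone genes Tac1, Nts, Insl5, Iapp and Penk, the serotonin synthesis enzyme Tph1, the granule proteins Chgb and Scg2, the prohormone convertase Pcsk2 and Pcsk1n, an inhibitor of the convertase Pcsk1. The most sites were at Slc5a1, the sodium-glucose cotransporter, with 12. Ddc, an amine synthesis enzyme, and Lpar5, a lipid receptor, had 10 each. Scg5 and Ucn3 had 5 each, and Foxa1, Gpbar1, Mboat4 and Vgf had 4 each.

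These 56 genes had 101 merged sites, of which 2 (1.98%) were called in all 4 GF+HFM lists and in no CV+HFM list, among them 1 at Ddc. Over all merged sites this share was 2.79%. Sites called in all 8 lists numbered 4 (3.96%), against 7.56% of all merged sites. Of these 4, 2 were at Slc5a1 and 1 each at Ucn3, a urocortin, and Slc18a1, a vesicular amine transporter. Mboat4, the enzyme that acylates ghrelin, had 4 sites called in GF+HFM lists, of which 1 was also called in CV+HFM. Over all merged sites, 35.6% were called in no CV+HFM list, so these few calls are not shown to be particular to Mboat4. For comparison, 16 of 17 enterocyte genes had a site, with a median of 10, and 10 of 15 goblet and Paneth cell genes had a site, with a median of 2. The enterocyte genes are longer, with a median of 39.2 kb against 9.56 kb for the 56 enteroendocrine genes, and the part of gene length in these counts was not tested.

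**Figure D3:**
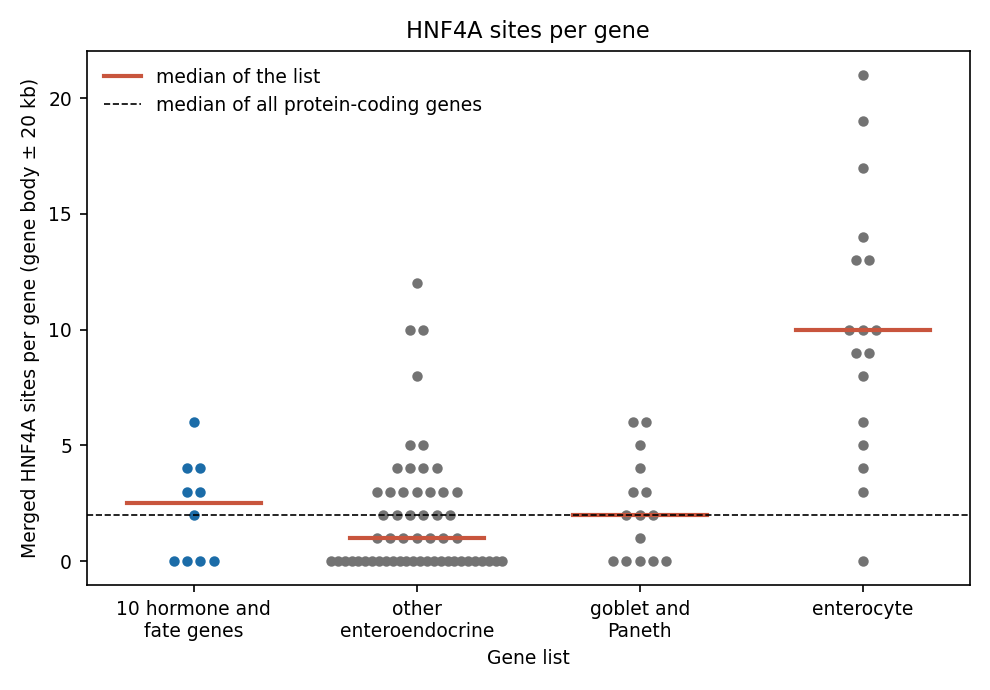
Number of merged HNF4A sites in the gene body and 20 kb on either side (y axis) for each gene of 4 lists (x axis), with a red bar at the list median and a dashed line at the median of all protein-coding genes, 2. The 10 hormone and fate genes range from 0 to 6 with a median of 2.5, and the enterocyte genes reach 21 with a median of 10.

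The calls at the 22 sites were next compared between conditions. The GF+HFM lists called 21, 19, 18 and 18 of the 22 sites (mean 19 ± 1.41, SD, n = 4), and the CV+HFM lists called 16, 7, 14 and 4 (mean 10.2 ± 5.68, SD, n = 4). The groups did not overlap, and the mean difference was -8.75 sites per list. Every GF+HFM list had a site at all 6 genes, and the CV+HFM lists had a site at 6, 5, 6 and 3 of them. These 6 genes are those with a site in any list. The matching share of all protein-coding genes was not counted for each list, so these counts are not a result about the genes. By site, GF+HFM calls outnumbered CV+HFM calls at 18 of 22, the numbers were equal at 4, and CV+HFM calls outnumbered GF+HFM calls at 0. Over all merged sites GF+HFM calls were more numerous at 86.5% and CV+HFM calls at 2.86%, so the direction at the 22 sites was that of the lists as a whole.

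The same held library by library. The GF+HFM lists called 76.4%, 64.0%, 72.1% and 74.0% of all merged sites and 95.5%, 86.4%, 81.8% and 81.8% of the 22. The CV+HFM lists called 60.8%, 19.2%, 43.3% and 8.97% of all merged sites and 72.7%, 31.8%, 63.6% and 18.2% of the 22. In each of the 8 lists the share at the 22 sites was above the share of all sites, and both were lowest in CV+HFM replicates 2 and 4. Without these 2 lists the difference was -4.0 sites per list. With each list limited to its 4533 widest peaks, the length of the shortest list, 10 sites were left and the difference was -0.5.

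**Figure D4:**
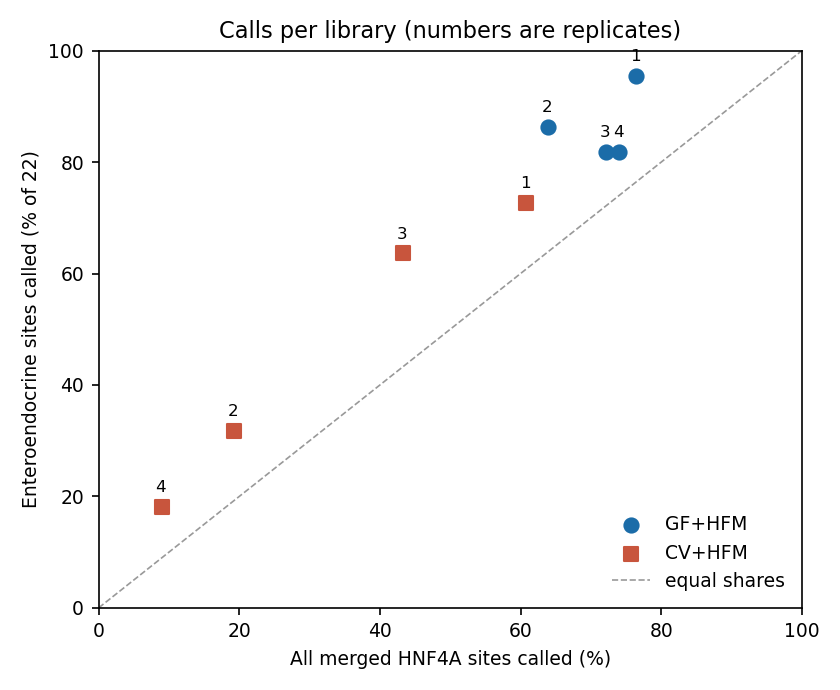
Share of the 22 enteroendocrine sites called (y axis, %) against the share of all merged sites called (x axis, %), with 1 point per library, circles for GF+HFM, squares for CV+HFM, numbers for replicates and a dashed line at equal shares. All 8 points lie above the line, and CV+HFM 4 is lowest at 8.97% and 18.2%.

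The 22 sites were called by a median of 6 lists (mean 5.32), against 4 (mean 4.19) for all merged sites and 3 (mean 3.79) for the 101 sites at the other enteroendocrine genes. The median was 5 (mean 4.61) for sites at the enterocyte genes and 4 (mean 4.12) at the goblet and Paneth cell genes. Of the 22, 4 (18.2%) were called in all 8 lists, against 7.56% of all sites (3445 of 45552). The share was 12.0% at the enterocyte genes, 3.96% at the other enteroendocrine genes and 2.94% at the goblet and Paneth cell genes. The values of the 22 rest on few sites and are not shown to be particular to the hormone genes. In all 4 GF+HFM lists 15 of 22 (68.2%) were called, against 50.6% of all sites, and 5 of 22 (22.7%) were called in no CV+HFM list, against 35.6%. By Fisher's exact test 1269 of 45552 sites had an unadjusted p below 0.05 and 0 had an adjusted p below 0.05. The smallest p that 4 libraries against 4 allow, 0.0286, became 0.824 after adjustment, so no site could pass with these calls, and the count of 0 does not show that sites were alike.

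Relative width at the 4 sites called in all 8 lists gave a comparison over sites that every list holds. Width was ranked within each library over the 3445 such sites, converted to normal scores and compared with limma. This called 4 of 3445 sites (0.116%) lower in CV+HFM and 0 higher, and none of the 4 was near these genes. At Ghrl site 5 the percentiles among the 3445 sites were 29.6, 50.1, 23.7 and 23.4 in GF+HFM (mean 31.7 ± 12.6, SD, n = 4) and 49.4, 91.3, 45.7 and 68.8 in CV+HFM (mean 63.8 ± 20.9, SD, n = 4). The groups overlapped at GF+HFM replicate 2, and the normal score was 0.93 ± 0.40 (SE) higher in CV+HFM (limma, adjusted p = 0.40), which did not pass the test.

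The other 3 sites had smaller differences. At Gip site 2 the GF+HFM mean percentile was 35.9 ± 23.0 and that of CV+HFM was 36.3 ± 19.9, and at Sct site 3 the means were 70.0 ± 11.2 and 70.0 ± 30.9 (SD, n = 4). At Ghrl site 6 it was 62.2 ± 9.84 and 53.0 ± 22.5. The differences in normal score, CV+HFM minus GF+HFM, were 0.039 ± 0.43, 0.085 ± 0.44 and -0.21 ± 0.39 (SE) at Gip site 2, Sct site 3 and Ghrl site 6, with adjusted p = 0.977, 0.954 and 0.872 by limma. All 3 were smaller than their errors.

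**Figure D5:**
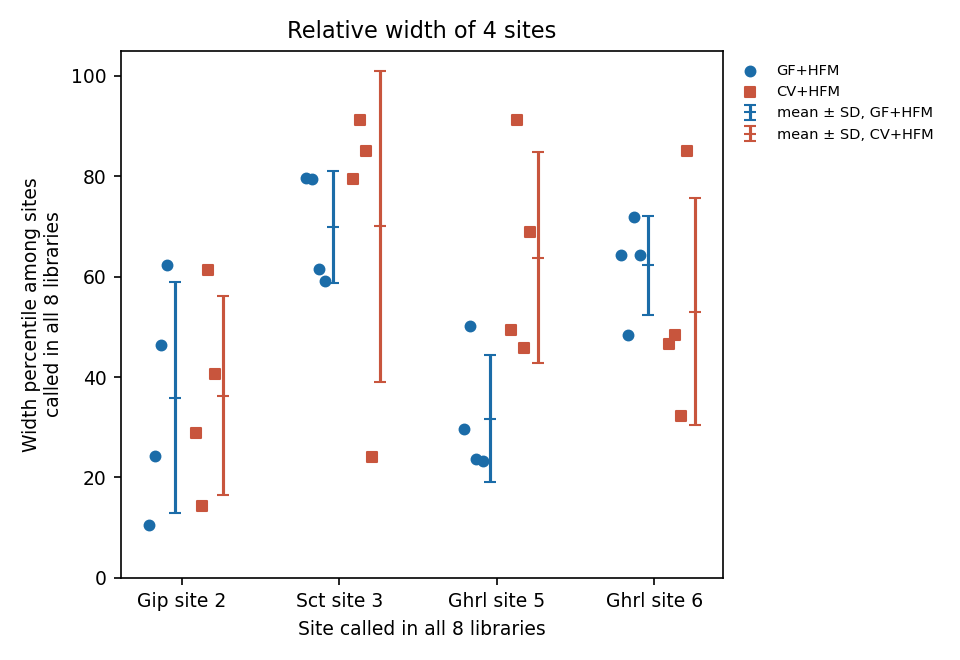
Width percentile among the 3445 sites called in all 8 libraries (y axis) at the 4 enteroendocrine sites of that set (x axis), with a point for each library, circles for GF+HFM, squares for CV+HFM, and bars for mean ± SD (n = 4). The conditions overlap at all 4 sites, and CV+HFM is shifted upward at Ghrl site 5, with means of 31.7 and 63.8.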

How the data were processed

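The HNF4A peak lists used were those of 4 GF+HFM mice and 4 CV+HFM mice, grouped by their labels. The other libraries of the series were not analysed here. The authors aligned the reads with Bowtie2 (mm9) and called the peaks of each mouse with MACS2 2.1.1.20160309 against input. The deposited lists give positions in bp (chromosome, start, end) and a name, with no strength, count or p-value. Reads per library are not in them, so depth and counting error are unknown. The authors removed blacklisted regions only from a merged set not used here.

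Peaks were merged at 1 bp of overlap. Genes follow GENCODE M1, and no peak of the 21 chromosomes compared ended beyond the NCBIM37 reference. Calls were compared with Fisher's exact test (two-sided, scipy 1.17.1), with Benjamini-Hochberg adjustment, and width rank with limma 3.58.1 in R 4.3.3, at a threshold of 0.05. Tested on simulated data for this comparison (3445 sites, of which 200 were shifted by 3 SD), limma recovered 68% and 4.23% of its calls were false. The simulated noise was normal, with the same SD at every site and in every library. The real lists are less alike, so these rates do not give those of the test on the real lists. All 10 genes and every site in their windows were described. Of the 56 other enteroendocrine genes, those named had a site called in 4 GF+HFM and 0 CV+HFM lists or in all 8, were among the 10 with the most sites, or were among 10 with none. An item that this rule names is not reported here. The genes, lists and tests were chosen with earlier results of these data known. Alternatives were other windows, overlaps and widths, the nearest gene in place of a window, equal list lengths, each library left out and the replicate number as a block. Some were added after the lists were seen. These left out sites near other starts, the 2 shortest lists, or animals whose identifier does not end in A.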

Additional observations from a re-analysis of the deposited data

Results flagged for a closer look

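The width percentile of Sct site 3 in CV+HFM stood out because 1 library was far from the other 3. CV+HFM replicate 4 was at 33.5, and replicates 1 to 3 were at 95.7, 96.1 and 96.3, so the gap to the nearest of them was 0.992 of the whole range. In that library the peak was 78 bp wide, against 730, 381 and 619 bp in replicates 1 to 3. Of 21 groups of 4 libraries tested in this way, 1 stood out. For independent, normally distributed values chance gives about 1 in 20. Percentiles are bounded and the groups share the same libraries, so that rate need not hold here. CV+HFM replicate 4 has the shortest list, with 4533 peaks, and the part of list length in this value was not tested.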

How the results depend on the processing

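The number of sites, 22, became 14 in 10 kb windows, 55 in 50 kb windows, 10 with the widest 4533 peaks of each list and 10 when a site was given to its nearest gene only. Genes without a site, 4, fell to 1 in 50 kb windows and rose to 5 with the widest peaks and to 6 when a site was given to its nearest gene only. The count of sites called in 4 GF+HFM and 0 CV+HFM lists, 1, became 0 in 10 kb windows, 0 with the widest peaks and 3 when at least 50% of a site had to be covered. With a library left out it ranged from 1 to 3, reaching 2 when GF+HFM replicate 2 was omitted and 3 when CV+HFM replicate 1 was. The difference of -8.75 sites per list was a count over 22 sites. It became -5.0 over the 14 sites of 10 kb windows and -21.2 over the 55 sites of 50 kb windows. A count over more sites can be larger, so these differences are not on the same scale. With the widest peaks the difference was -0.5. Chosen after seeing the data, it was -4.0 without CV+HFM replicates 2 and 4 and -7.67 among animals whose identifier ends in A. With 1 library left out it ranged from -10.7 to -6.67. The cause was not tested.

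The 4 limma calls became 0 with log2 of width and 1 with peaks of at least 300 bp. They ranged from 0 to 21 with a library left out, where omitting CV+HFM 1 gave 21, omitting GF+HFM 2 gave 14, omitting CV+HFM 4 gave 5 and omitting any other gave 0. The normal-score differences ranged from -0.24 to 0.28 at Gip site 2 and from -0.13 to 0.54 at Sct site 3, changing sign without GF+HFM 1, GF+HFM 2 or CV+HFM 3 and without GF+HFM 3, GF+HFM 4, CV+HFM 2 or CV+HFM 3, respectively. They ranged from 0.61 to 1.10 at Ghrl site 5 and from -0.37 to -0.015 at Ghrl site 6. With log2 of width, the difference at Gip site 2 was -0.0078, at Sct site 3 -0.034 and at Ghrl site 6 0.048. None passed the threshold.

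Deviations of same-numbered libraries correlated at 0.053, 0.075, -0.078 and 0.14, and 1 of 4 pairs matched best with its own number, so the numbers were not taken as pairing. With the replicate number as a block limma again called 4 sites, and Ghrl site 5 had an adjusted p of 0.323. Unknown depth limits every missing call.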

Other observations

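The receptor genes Ffar1, Ffar2 and Ffar3, which sense long-chain or short-chain fatty acids in enteroendocrine cells, were singled out after their values were seen. They are neighbors, and their windows hold 3 distinct merged sites in all. All 3 lie in the windows of Ffar1 and Ffar3, and the first 2 also in that of Ffar2. These sites, at chr7:31625631-31626066, chr7:31626358-31626971 and chr7:31632467-31632679, were called in 2, 3 and 2 GF+HFM lists and in 0 CV+HFM lists. Fisher's exact test gave p = 0.429, 0.143 and 0.429, two-sided. Of all merged sites, 35.6% were called in no CV+HFM list.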
